A study of Mus musculus with 12 samples.

Results

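The response of MC3T3 sc4 cells to bone morphogenetic protein 2 (BMP2) at 50 ng/ml was measured by RNA-seq after 1 day, in 4 of the 12 libraries of the series. MC3T3 sc4 is a mouse calvarial pre-osteoblast line, a subclone that lays down mineralised matrix in osteogenic medium. The 4 libraries were chosen by their labels and form 2 matched pairs. The pair without GSK126 set cells with BMP2 50 ng/ml against cells with vehicle, and the pair with GSK126 set cells with BMP2 50 ng/ml and 5 µM GSK126 against cells with 5 µM GSK126 alone. GSK126 is an inhibitor of EZH2, the methyltransferase of Polycomb repressive complex 2 (PRC2). A change is reported where it ran the same way in both pairs. All groups were C57BL/6 cells at passage 12, plated without ascorbic acid and moved the next day into medium with 50 µg/ml ascorbic acid and 4 mM β-glycerol phosphate, so cells without BMP2 were also under osteogenic conditions. The line is 1 established subclone. Each condition has 1 library. No label states whether libraries came from separate cultures, and the spread behind each p-value may therefore be technical. The other 8 libraries hold BMP2 10 ng/ml on day 1 and all treatments on day 6, and appear only where named.

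BMP2 binds type I and type II serine/threonine kinase receptors, which phosphorylate SMAD1, SMAD5 and SMAD9. These join SMAD4 and enter the nucleus, where they switch on Id genes, inhibitory SMADs and other targets. In cells of the osteoblast lineage the pathway is known for raising the transcription factors RUNX2 and SP7 (osterix) and, through them, genes of the bone matrix.

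The 4 libraries held 74301112 to 110414130 counts, and Rn45s, the precursor of ribosomal RNA, made up 8.96% to 11.71% of them. Every count was even, so depth is also given as read pairs, which are the count divided by 2. Levels are CPM, the counts scaled to a common library total, after TMM scaling. The test covered the 11520 genes that reached 1 CPM in 2 or more libraries. A gene was called where edgeR's quasi-likelihood test gave an adjusted p below 0.05 and both pairs moved in the same direction. Values after ± are standard errors of the log2 fold change over the 4 libraries. This fit has 1 residual degree of freedom, and edgeR estimated an infinite prior degree of freedom, so the spread came wholly from genes of like abundance. Its standard errors and p-values therefore do not use a gene's own disagreement between the pairs and can be too small. The gap between the 2 pair log2 fold changes had a median of 0.09 among the 145 named genes that were called, and folds of both pairs are printed for genes the results turn on. A fit on all 12 libraries, which estimates the spread over both days, is far stricter. Its adjusted p-values are quoted as those over 12 libraries, and 55 of the 145 passed there.

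With BMP2, 5280 genes were called, which is 45.8% of those tested. Of these 2776 (24.1%) were higher and 2504 (21.7%) lower. Most changes were small. The median absolute log2 fold change was 0.20 among called genes and 0.11 among all tested genes, and 88.1% of called genes changed less than 1.5-fold. At least 2-fold in both pairs were 144 genes (1.25%), 82 higher (0.712%) and 62 lower (0.538%). The fold changes of the pairs, which share no library, had a Pearson correlation of 0.85 and a Spearman correlation of 0.75 across 11520 genes, which are not independent replicates. Over 12 libraries 476 of 12056 tested genes were called, 244 higher and 232 lower, including 97 of the 144. Past the filter only through the libraries with BMP2 were 29 tested genes, 15 of them among the 144. Past it only through those without BMP2 were 92, with 11 among the 144. Such genes had to differ, and each that was called adds to the count of its list. List members that passed only through the libraries with BMP2 were Hey1, Nog, Dlx3, Alpl, Wif1, Notum, Hapln1, Mmp13, Pparg and Csf1r. Of these Nog and Csf1r were not among the 144. The fit on the 8 libraries at 0 and 50 ng/ml of both days called only Tmem158, against 1585 genes at an unadjusted p below 0.05. DESeq2 called 2956 genes on the 4 libraries, including all 144. Scaled by library size alone, 1554 genes were called higher, against 2776 with TMM scaling, and the median gene moved by -0.06 on the log2 scale.

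**Figure D1:**
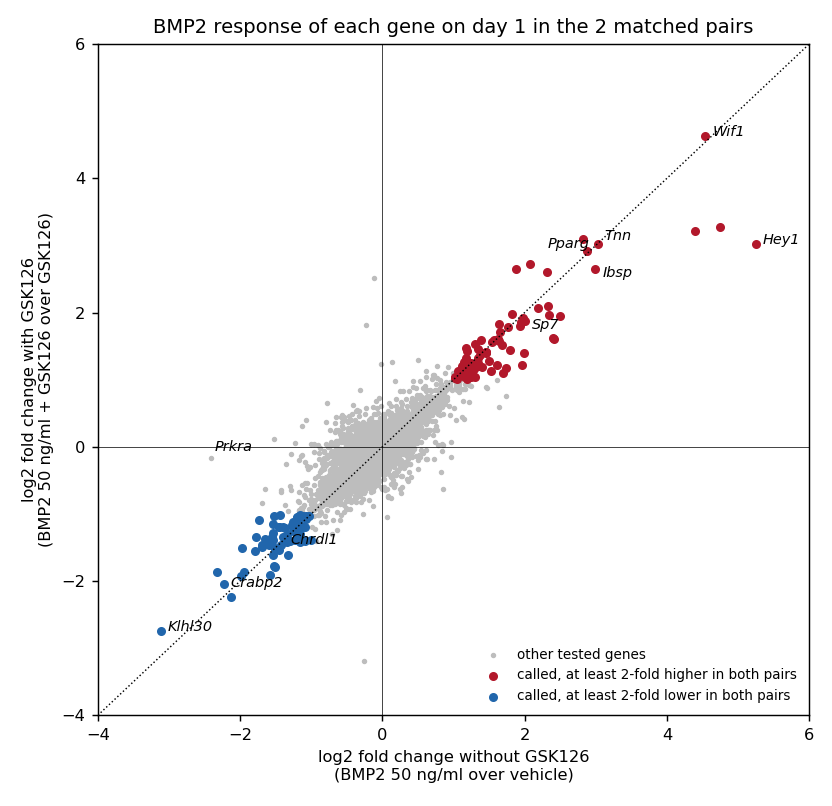
Log2 fold change with BMP2 50 ng/ml in the pair without GSK126 (x axis) and in the pair with GSK126 (y axis), with 1 point for each tested gene other than Tmem158 and the line of equal change dotted. The genes called at least 2-fold in both pairs (red higher, blue lower) lie mostly near the line of equal change, with a median gap of 0.14 between the pairs. Hey1 (5.25 and 3.02), Serpinb2 (4.74 and 3.27) and Krt16 (4.40 and 3.22), which held few reads without BMP2, lie off it by more than 1, as does Prkra (-2.40 and -0.17), which was not 2-fold in both pairs.

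Tmem158, a transmembrane protein gene at chr9:123259057-123260789 (mm10), had the largest fold but stood apart over the series. It held 1027 and 805 CPM with BMP2, against 1.75 and 1.84 CPM in vehicle and with GSK126 alone. Scaled by library totals alone, its level was between 1.69 and 1.91 CPM in 3 libraries and between 794 and 1320 CPM in the other 9, with nothing between. The 3 low ones were the vehicle, GSK126 and BMP2 10 ng/ml libraries of day 1. All day 6 libraries were high, those without BMP2 included, and so was the day 1 library of BMP2 10 ng/ml with GSK126. Without this gene the counts at 2-fold were 143 in all and 81 higher. A further 6 rows were high in 1 library of day 1 only, 4 of them in a library of the comparison. Prkra had 127 CPM in vehicle, against 22.1 to 24.8 CPM in the other 3 libraries of the comparison, and Fam132a had 951 CPM with BMP2 10 ng/ml, against 17.1 to 19.6 CPM in the rest of day 1. By library totals Basp1, which was not called, had 371 CPM with BMP2 50 ng/ml and GSK126, against 59.4 to 70.8 CPM in the rest of day 1. Mir2137 (1240 CPM in vehicle) and Ephx4 (27.8 CPM with BMP2 50 ng/ml and GSK126) were below the filter. Prkra was called lower although its pair folds were -2.40 and -0.17, and it is among the 5280 called genes.

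**Figure D2:**
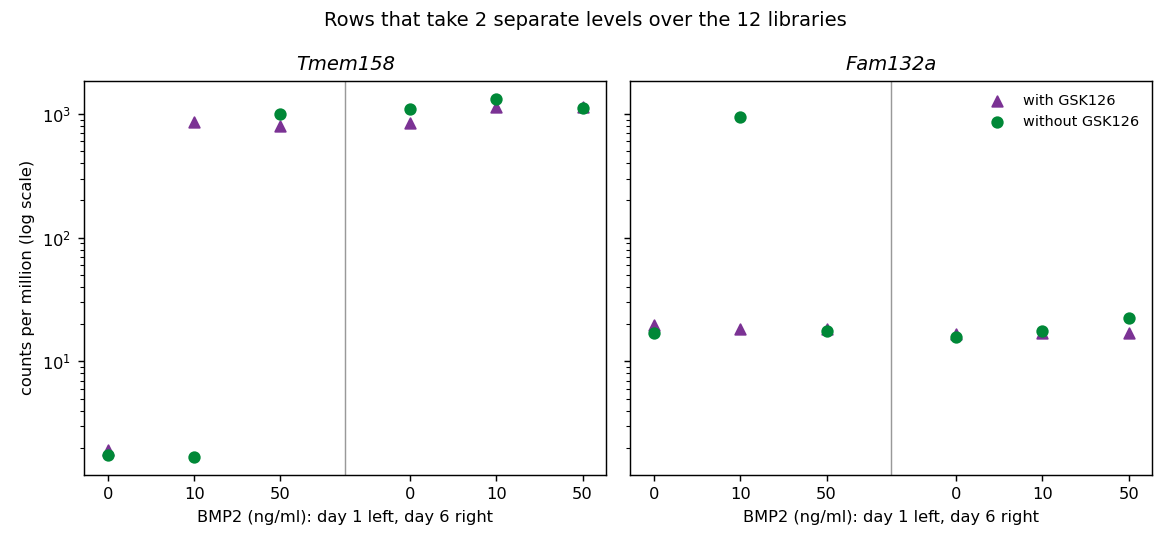
CPM by library totals (log scale) of Tmem158 (left) and Fam132a (right) in each of the 12 libraries, by BMP2 dose on day 1 and day 6, with GSK126 (triangles) and without (circles). Tmem158 sits below 2 CPM in 3 day 1 libraries and at 794 CPM or above in the other 9, while Fam132a is high in 1 library.

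The promoters of Smad6, Smad9 and Id2 are shown because these SMAD pathway genes were called at least 2-fold higher and SMAD binding motifs can be searched in them. Sequences are from RefSeq (GRCm38.p6, the build also called mm10), from 200 bases before the annotated start to the first 30 transcribed bases, written 5′ to 3′ on the strand of the gene. Capitals mark GGCGCC, a GC-rich motif bound by SMAD1 and SMAD5, and GTCT or its complement AGAC, the core SMAD-binding element. Smad6 is at chr9:64022030-64022259 on the minus strand, Smad9 at chr3:54755382-54755611 on the plus strand and Id2 at chr12:25096063-25096292 on the minus strand.
Smad6: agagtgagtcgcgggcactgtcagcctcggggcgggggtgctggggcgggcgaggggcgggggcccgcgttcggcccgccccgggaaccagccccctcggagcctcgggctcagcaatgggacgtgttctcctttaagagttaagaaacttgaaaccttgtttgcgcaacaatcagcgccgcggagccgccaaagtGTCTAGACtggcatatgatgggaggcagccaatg
Smad9: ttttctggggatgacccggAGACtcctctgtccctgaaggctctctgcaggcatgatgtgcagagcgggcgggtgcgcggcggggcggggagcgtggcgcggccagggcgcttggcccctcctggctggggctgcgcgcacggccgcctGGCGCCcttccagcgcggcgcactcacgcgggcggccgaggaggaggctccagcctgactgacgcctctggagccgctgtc
Id2: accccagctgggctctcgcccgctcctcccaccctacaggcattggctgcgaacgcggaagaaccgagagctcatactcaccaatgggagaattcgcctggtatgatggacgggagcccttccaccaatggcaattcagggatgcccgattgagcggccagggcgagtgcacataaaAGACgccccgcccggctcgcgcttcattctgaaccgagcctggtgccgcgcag

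In the Smad6 window the palindrome GTCTAGAC, which is GTCT joined to its own complement, covers bases -4 to 4 around the start (there is no base 0). In Smad9, GGCGCC lies at bases -51 to -46 and AGAC at -181 to -178. In Id2, AGAC lies at -23 to -20. Over all 32851 promoters of 300 bases in the table, read on both strands, 11.9% held GGCGCC, 88% held GTCT and 0.213% held GTCTAGAC. Of the 144 genes 88 were matched. The 71 promoters of 52 genes that rose 2-fold held GGCGCC in 23.9% and GTCT in 91.5%. Only 1, the Smad6 promoter printed above, held GTCTAGAC. The 47 promoters of 36 genes that fell 2-fold held them in 17% and 76.6%, and none held GTCTAGAC. Promoters of tested genes held them in 21.5%, 85.4% and 0.188%. A match is only the letters and does not show binding.

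BMP-SMAD target genes were mostly higher. Of 15 tested, 12 were called higher and 1 lower, with a median log2 fold change of 0.70 against 4e-04 over all tested genes. Leaving out Hey1, which passed the filter only through the libraries with BMP2, 11 of 14 were called higher and 1 lower. Id1, Id2 and Id3, which encode inhibitors of basic helix-loop-helix factors, all rose. Id1 had 33.3 and 32.1 CPM with BMP2, against 19.1 and 20.2 CPM without. Id2 had 62.2 and 64.4 CPM with BMP2, against 30.2 and 32.0 CPM without. The lower BMP2 library of each gene lay above the higher library without BMP2. Id3, the most abundant of the family per coding length, had a log2 fold change of 0.54 ± 0.03, against 0.73 ± 0.05 for Id1 and 1.03 ± 0.04 for Id2. Id4 went the other way in both pairs, with 34.2 and 34.3 CPM with BMP2, against 62.2 and 67.6 CPM without, a log2 fold change of -0.92 ± 0.04. None of the 4 passed over 12 libraries, where their adjusted p-values were 0.15, 0.12, 0.20 and 0.061 in the order Id1 to Id4. Atoh8, a basic helix-loop-helix factor, rose by 1.09 ± 0.03, and Junb, a subunit of the AP-1 transcription factor, by 0.92 ± 0.03. Both passed over 12 libraries, with adjusted p-values of 0.014 and 0.036, together with Hey1, Msx2 and Tbx3.

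Hey1, a transcriptional repressor that answers to both BMP and Notch, was nearly silent without BMP2. It had 180 and 233 read pairs with BMP2, against 3 in vehicle and 24 with GSK126 alone. The ratio, after TMM scaling, was 47.9 without GSK126 (95% interval 16.1 to 234, counting error only) and 8.42 with it (5.52 to 13.4). The 2 libraries without BMP2 thus differed by more than those with it. Its adjusted p over 12 libraries was 0.0099. Of the 8 other Notch pathway genes tested, 3 were called higher and 3 lower. Hes1, another repressor of this family, rose by 0.94 ± 0.06 (adjusted p = 0.035 over 12 libraries). The receptors Notch1 and Notch3 fell by 0.52 ± 0.05 and 0.45 ± 0.07 on the log2 scale, and neither passed over 12 libraries (adjusted p = 0.24 and 0.15).

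Feedback and antagonist genes moved in both directions. Of 15 tested, 7 were called higher and 6 lower, with a median of 0.06, and the inhibitory SMADs were among the higher ones. Leaving out Nog, which passed the filter only through the libraries with BMP2, 6 of 14 were called higher and 6 lower. Smad6, an inhibitory SMAD that competes for the receptor and for SMAD4, had 134 and 128 CPM with BMP2, against 52.9 and 53.9 CPM without. The pairs gave log2 fold changes of 1.34 and 1.24 and the groups lay far apart. Smad7, the other inhibitory SMAD, rose by 1.02 ± 0.03, to 89.5 and 75.3 CPM with BMP2, against 44.0 and 37.1 CPM without. Bambi, a decoy receptor without a kinase domain, had 14.7 and 16.7 CPM with BMP2, against 3.77 and 4.62 CPM without. Its log2 fold change of 1.90 ± 0.09 was the largest of the list. Smurf2, a ubiquitin ligase for SMADs and receptors, rose by 0.66 ± 0.03, and Smurf1 (0.06) did not pass. Over 12 libraries Smad6, Smad7, Bambi and Smurf2 were among the members that passed as higher, with adjusted p-values of 0.014, 0.006, 0.029 and 0.0023.

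Among secreted BMP antagonists, noggin (Nog) was called higher at 1.07 ± 0.23 but did not pass over 12 libraries (adjusted p = 0.41). Noggin was scarce. It had 66 and 90 read pairs with BMP2, against 26 and 36 without, and missed 2-fold narrowly in the pair without GSK126 (log2 0.99). Chrdl1, a chordin-like antagonist at chrX:143285674-143394262, fell the most. It had 82.8 and 102 CPM with BMP2, against 219 and 259 CPM without, a log2 fold change of -1.37 ± 0.03 (adjusted p = 0.028 over 12 libraries). Chordin itself (Chrd, -0.62 ± 0.08), follistatin (Fst, -0.50 ± 0.03) and Grem1 (-0.26) were also called lower, as was Rgma, a BMP co-receptor (-0.77 ± 0.08). Of these Rgma passed over 12 libraries (adjusted p = 0.017), and Chrd, Fst and Grem1 did not (adjusted p = 0.15, 0.20 and 0.65). For Chrdl1, Chrd and Fst both values with BMP2 lay below both without.

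The ligands, receptors and SMADs changed in part, with 6 of 12 called higher and 3 lower. Among the 12, 1 passed the filter only through the libraries without BMP2, and without it 6 of 11 were called higher and 2 lower. Bmp4, a ligand of the same receptors, fell in both pairs, to 16.5 and 22.5 CPM with BMP2, against 37.7 and 48.9 CPM without. Its log2 fold change was -1.15 ± 0.05 (adjusted p = 0.0049 over 12 libraries). Endogenous Bmp2 had 0 read pairs in all 4 libraries, where 3 read pairs would be at most 0.0808 CPM. Smad9, one of the receptor-activated SMADs, had 54.1 and 51.9 CPM with BMP2, against 22.9 and 24.3 CPM without. That is a log2 fold change of 1.16 ± 0.04 (adjusted p = 0.0091 over 12 libraries). The other SMADs of the pathway moved little, with Smad1 at 0.14, Smad4 at 0.08 and Smad5 at -0.04, the last of which did not pass. Per coding length Smad9 had 7.92 and 7.75 RPKM with BMP2, against 3.31 and 3.78 RPKM without, and Smad5 had 10.4 and 10.7 RPKM with BMP2, against 10.4 and 11.4 RPKM without. Smad9 was thus below Smad5 in all 4 libraries. The type II receptor Bmpr2, like Smad9, passed as higher over 12 libraries. The type I receptor Acvr1 (0.29 ± 0.03) and the protease Bmp1 (0.35 ± 0.03), which is not a BMP ligand but trims procollagen and chordin, rose slightly and did not pass over 12 libraries (adjusted p = 0.064 and 0.14).

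**Figure D3:**
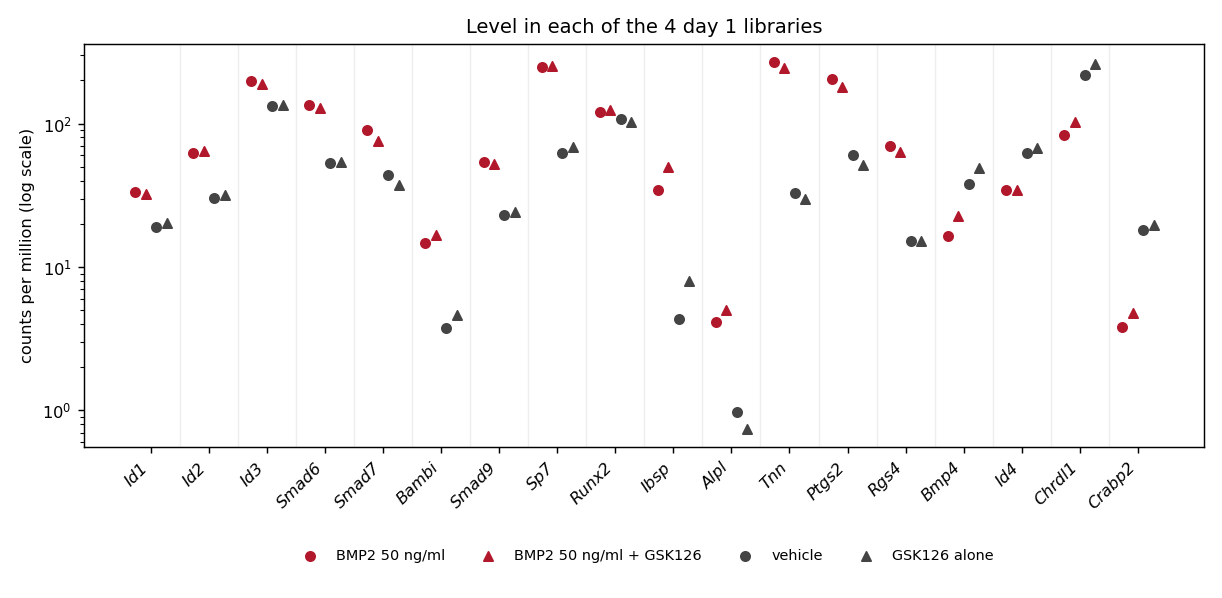
CPM (log scale) of 18 genes in the 4 libraries of day 1, with BMP2 50 ng/ml in red and without BMP2 in grey, and with GSK126 as triangles. Each gene's 2 red points lie on one side of its 2 grey points, above them for the genes from Id1 to Rgs4 and below them for Bmp4, Id4, Chrdl1 and Crabp2.

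Of 17 osteoblast transcription factors tested, 13 were called higher and 0 lower, with a median log2 fold change of 0.25. Leaving out Dlx3, which passed the filter only through the libraries with BMP2, 12 of 16 were called higher. Sp7 (osterix, chr15:102357177-102366271), which osteoblasts need in order to form bone, had 249 and 252 CPM with BMP2, against 61.9 and 69.1 CPM without. It rose 3.83-fold, with pair log2 fold changes of 2.01 and 1.87 (adjusted p = 0.009 over 12 libraries). Runx2, which lies upstream of Sp7 in bone formation, moved far less. It had 121 and 124 CPM with BMP2, against 108 and 102 CPM without, a log2 fold change of 0.23 ± 0.03 that did not pass over 12 libraries (adjusted p = 0.38). Per coding length Sp7 stood at 85.5 and 88.5 RPKM with BMP2, against 21.0 and 25.2 RPKM without, and Runx2 stayed between 12.1 and 14.4 RPKM in all 4. The homeobox genes Dlx5 (0.49 ± 0.05), Msx2 (0.89 ± 0.09) and Dlx3 (1.17 ± 0.24) rose. Dlx3 had 18 and 42 read pairs without BMP2. Tcf7, a partner of β-catenin, rose by 1.26 ± 0.10, with unequal pairs of 1.61 and 0.99. Dlx5, Dlx3 and Tcf7 did not pass over 12 libraries (adjusted p = 0.15, 0.25 and 0.21). Over 12 libraries 4 of the 17 passed, namely Sp7, Msx2, Sox4 and Cbfb, the RUNX2 partner. Over all genes of that fit 244 of 12056 passed as higher.

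Bone matrix and mineralisation genes were higher for 12 of 16 tested and lower for 3, with a median of 0.34. Leaving out Alpl, which passed the filter only through the libraries with BMP2, 11 of 15 were higher and 3 lower. Ibsp, bone sialoprotein at chr5:104299287-104311472, had 34.4 and 50.1 CPM with BMP2, against 4.31 and 7.97 CPM without. It rose 6.94-fold (adjusted p = 0.0099 over 12 libraries), and both libraries with GSK126 lay above their partners without it. Alpl, alkaline phosphatase of bone, had 4.14 and 5.01 CPM with BMP2, against 0.969 and 0.742 CPM without, with pair log2 fold changes of 2.07 and 2.72 (adjusted p = 0.03 over 12 libraries). Alpl is therefore a low transcript on day 1, at 1.29 and 1.60 RPKM with BMP2 and 0.299 and 0.245 RPKM without. Dmp1, an osteocyte matrix protein, rose by 1.14 ± 0.08, with unequal pairs of 1.45 and 0.88, and Pth1r, the parathyroid hormone receptor, by 0.76 ± 0.03. Neither passed over 12 libraries (adjusted p = 0.28 and 0.27). The abundant collagen gene Col1a1 had 24080 and 24450 CPM with BMP2, against 19970 and 20190 CPM without, a rise of 0.27 ± 0.02 (adjusted p = 0.26 over 12 libraries). Spp1, osteopontin, was called lower at -0.29 ± 0.02, with 558 and 692 CPM with BMP2, against 668 and 870 CPM without. Its groups overlap across the pairs, since BMP2 with GSK126 lay above vehicle, and its adjusted p over 12 libraries was 0.79. Osteocalcin (Bglap), a late osteoblast gene, had 8 and 13 read pairs with BMP2, against 2 and 0 without, below the filter, and reads of the near-identical Bglap copies may be split by the counting.

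The largest rises beside Tmem158, among genes averaging 5 CPM or more, began with a matrix glycoprotein. Tnn, tenascin-W (chr1:160085032-160153575), known from developing bone, had 267 and 243 CPM with BMP2, against 32.8 and 29.8 CPM without. It rose 8.15-fold, by a log2 fold change of 3.03 in each pair (adjusted p = 0.012 over 12 libraries). Cd244, an immune receptor gene better known from natural killer cells, had 28.8 and 27.4 CPM with BMP2, against 5.76 and 4.49 CPM without (adjusted p = 0.0069 over 12 libraries). Both groups were tight and far apart. Rgs4 and Rgs3, which shorten G protein signals, rose by 2.13 ± 0.05 and 1.86 ± 0.03. These were the only 2 members of their family called at least 2-fold, and of 7 RGS genes tested 4 were called higher and 0 lower. Adhesion receptor Gpr56 (1.96 ± 0.13), the small GTPase Rhou (1.61 ± 0.10), the protease-like gene Prss46 (1.62 ± 0.11) and the matrix protein Smoc2 (1.60 ± 0.09) were smaller rises of the same rule, which also named Ibsp, Sp7, Bambi, Ptgs2 and Igfbp5. Of these Prss46, Smoc2 and Igfbp5 did not pass over 12 libraries (adjusted p = 0.075, 0.17 and 0.062), nor did Tmem158 (adjusted p = 0.082). Tenascin-C and periostin, a pair of matrix proteins, chosen after their values were seen, were higher at far greater abundance. Tnc, tenascin-C, had 1094 and 1222 CPM with BMP2, against 400 and 464 CPM without. Postn, periostin, had 2699 and 2667 CPM with BMP2, against 1222 and 1290 CPM without.

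Several genes were close to silent without BMP2, so their ratios rest on few reads. Wif1, a secreted Wnt inhibitor, had 168 and 284 read pairs with BMP2, against 5 and 9 without. The ratios were 26.8 (11.3 to 83.7) and 27.4 (14.2 to 60.5). Notum, which removes the lipid from Wnt proteins, had 104 and 140 read pairs with BMP2, against 15 and 39 without, and its pair log2 fold changes were 2.40 and 1.61. Neither Wif1 nor Notum passed over 12 libraries (adjusted p = 0.13 and 0.09). Pparg, the nuclear receptor that drives fat cell formation, had 135 and 182 read pairs with BMP2, against 14 and 20 without, or 7.70 and 7.89 times as much after scaling. It passed over 12 libraries (adjusted p = 0.0081), while of 6 adipocyte genes tested 2 were called higher, Pparg and Cebpb, and 0 lower. Pparg passed the filter only through the libraries with BMP2, and without it 1 of 5 was called higher. Over all tested genes the share was 24.1%. The collagenase gene Mmp13 had 72 and 143 read pairs with BMP2, against 15 and 19 without, and did not pass over 12 libraries (adjusted p = 0.27). Serpinb2, a protease inhibitor, and Krt16, a keratin, both named after their values were seen, were similar. Serpinb2 had 93 and 99 read pairs with BMP2, against 2 and 8 without, and Krt16 had 73 and 128 with BMP2, against 2 and 11 without. The ratios in the pair without GSK126 were 37.1 (9.99 to 311) and 29.1 (7.78 to 245). In the pair with GSK126 they were smaller, at 10.7 (5.24 to 25.5) and 10.1 (5.45 to 20.7).

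Of 12 Wnt antagonists 7 were below the filter, and Wif1 and Notum passed it only through the libraries with BMP2, so no count over the list is read. Of the other 3, the DKK co-receptor Kremen1 was called higher at 0.89 ± 0.03 (adjusted p = 0.011 over 12 libraries). Sfrp2 (-0.29 ± 0.03) and Dkk3 (-0.14 ± 0.02) were called lower and did not pass over 12 libraries (adjusted p = 0.097 and 0.38). Of 15 Wnt target and receptor genes, 4 were called higher and 4 lower, which is 26.7% each way and close to the shares over all tested genes. Lgr6, a receptor for R-spondins, had 147 and 157 CPM with BMP2, against 59.9 and 70.5 CPM without. Rspo2, an R-spondin, went the other way, with 22.5 and 23.9 CPM with BMP2, against 43.9 and 48.7 CPM without. Their log2 fold changes were 1.22 ± 0.03 and -1 ± 0.05, and both passed over 12 libraries (adjusted p = 0.0088 and 0.0019). Axin2, a common readout of β-catenin, did not pass, at -0.25.

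Genes known to answer to TGF-β or YAP were called higher for 13 of 17 and lower for 3, with a median of 0.33. The latent TGF-β binding protein gene Ltbp2 rose by 1.18 ± 0.06 and Ctgf, a matricellular protein, by 0.83 ± 0.02. Ltbp2 passed over 12 libraries (adjusted p = 0.0027) and Ctgf did not (adjusted p = 0.079). The TGF-β type II receptor Tgfbr2 fell to 101 and 107 CPM with BMP2, against 186 and 208 CPM without, a log2 fold change of -0.92 ± 0.03. Ankrd1, a YAP target, fell by 0.82 ± 0.03 on the log2 scale. Over 12 libraries 3 of these genes passed as higher and 2 as lower, Tgfbr2 among them (adjusted p = 0.03). Over all genes of that fit 244 of 12056 passed as higher and 232 as lower.

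Ptgs2 (COX-2, chr1:150100124-150108012), which makes the precursor of prostaglandins, had 206 and 178 CPM with BMP2, against 60.4 and 51.8 CPM without. Its pair log2 fold changes were 1.77 and 1.78 (adjusted p = 0.0018 over 12 libraries). Pla2g4a, the phospholipase that frees arachidonic acid for it, rose by 0.77 ± 0.03 (adjusted p = 0.01 over 12 libraries). The receptors Ptgfr (-0.96 ± 0.08) and Ptger1 (-0.35 ± 0.06) were called lower but did not pass over 12 libraries (adjusted p = 0.21 and 0.16). Over the prostaglandin list 4 of 10 tested were higher and 3 lower. Cytokines that act on osteoclasts were mixed, with 4 of 7 higher and 3 lower. Il11 rose by 0.81 ± 0.20, and Lif (-0.61 ± 0.10), Ccl2 (-0.81 ± 0.20) and the IL-33 receptor gene Il1rl1 (-0.58 ± 0.05) fell. Lif passed over 12 libraries (adjusted p = 0.039), and Il11, Ccl2 and Il1rl1 did not (adjusted p = 0.11, 0.35 and 0.37). Tnfsf11, RANK ligand, had 1 read pair in the 4 libraries together.

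Among genes that fell and averaged 5 CPM or more, Crabp2, a carrier of retinoic acid to its receptor (chr3:87948693-87953372), changed most. It had 3.82 and 4.79 CPM with BMP2, against 18.0 and 19.8 CPM without, a log2 fold change of -2.13 ± 0.08 (adjusted p = 0.0019 over 12 libraries). Other retinoic acid genes changed by less than 2-fold, with 3 of 8 tested called higher and 3 lower, Crabp2 included. Lrrc15, a leucine-rich membrane protein, had 2.34 and 2.99 CPM with BMP2, against 9.34 and 11.4 CPM without. The adhesion gene Cdh26 fell by 1.91 ± 0.11, the teneurin gene Odz4 by 1.5 ± 0.03, the GDNF family receptor Gfra2 by 1.58 ± 0.10 and Nov, a matricellular protein, by 1.39 ± 0.06 on the log2 scale. The remaining falls of this rule were Plscr2, Plekha6, Pdzd2, Zcchc5, Aldh3a1, Sft2d2 and Tspan11, between -1.67 and -1.36. Of the falls named here Odz4, Pdzd2 and Aldh3a1 did not pass over 12 libraries (adjusted p = 0.059, 0.25 and 0.20). Below 5 CPM, Podn, a small leucine-rich proteoglycan, fell by 1.59 ± 0.15 (adjusted p = 0.0039 over 12 libraries).

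In the insulin-like growth factor list 2 of 10 genes were called higher and 7 lower. Igf1, the growth factor itself, had 37.5 and 46.7 CPM with BMP2, against 84.6 and 92.2 CPM without, a log2 fold change of -1.07 ± 0.03 (adjusted p = 0.02 over 12 libraries). Igfbp5, a binding protein for it, rose to 118 and 175 CPM with BMP2, against 37.7 and 53.5 CPM without. Each of its libraries with GSK126 was above its partner, and it did not pass over 12 libraries (adjusted p = 0.062). The adaptors Irs1 (-0.34 ± 0.03) and Irs2 (-0.25 ± 0.04) were slightly lower and did not pass over 12 libraries (adjusted p = 0.39 and 0.49).

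Antigen presentation and interferon-stimulated genes were lower. Of 11 antigen presentation genes 9 were called lower and 0 higher, with a median of -0.50, and 2 passed over 12 libraries, Tapbp and H2-K1. Over all genes of the fit on 12 libraries 232 of 12056 passed as lower. The immunoproteasome subunit Psmb8 had 7.87 and 7.57 CPM with BMP2, against 12.9 and 13.8 CPM without. The MHC class I gene H2-K1 had 16.1 and 19.9 CPM with BMP2, against 25.3 and 30.7 CPM without (adjusted p = 0.009 over 12 libraries). No library with BMP2 reached one without it for either gene. B2m, the constant chain of MHC class I, did not pass. Of 8 interferon-stimulated genes tested 7 were called lower and 0 higher, and 0 passed over 12 libraries. Among the 8, 2 passed the filter only through the libraries without BMP2, and without them 5 of 6 were called lower. These transcripts were scarce, with Oasl2 at 0.793 and 0.845 CPM with BMP2, against 1.53 and 2.27 CPM without. Ifi204, an interferon-inducible gene outside the list and named after its values were seen, went the other way. It had 15.8 and 15.4 CPM with BMP2, against 6.00 and 5.09 CPM without (adjusted p = 0.012 over 12 libraries).

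**Figure D4:**
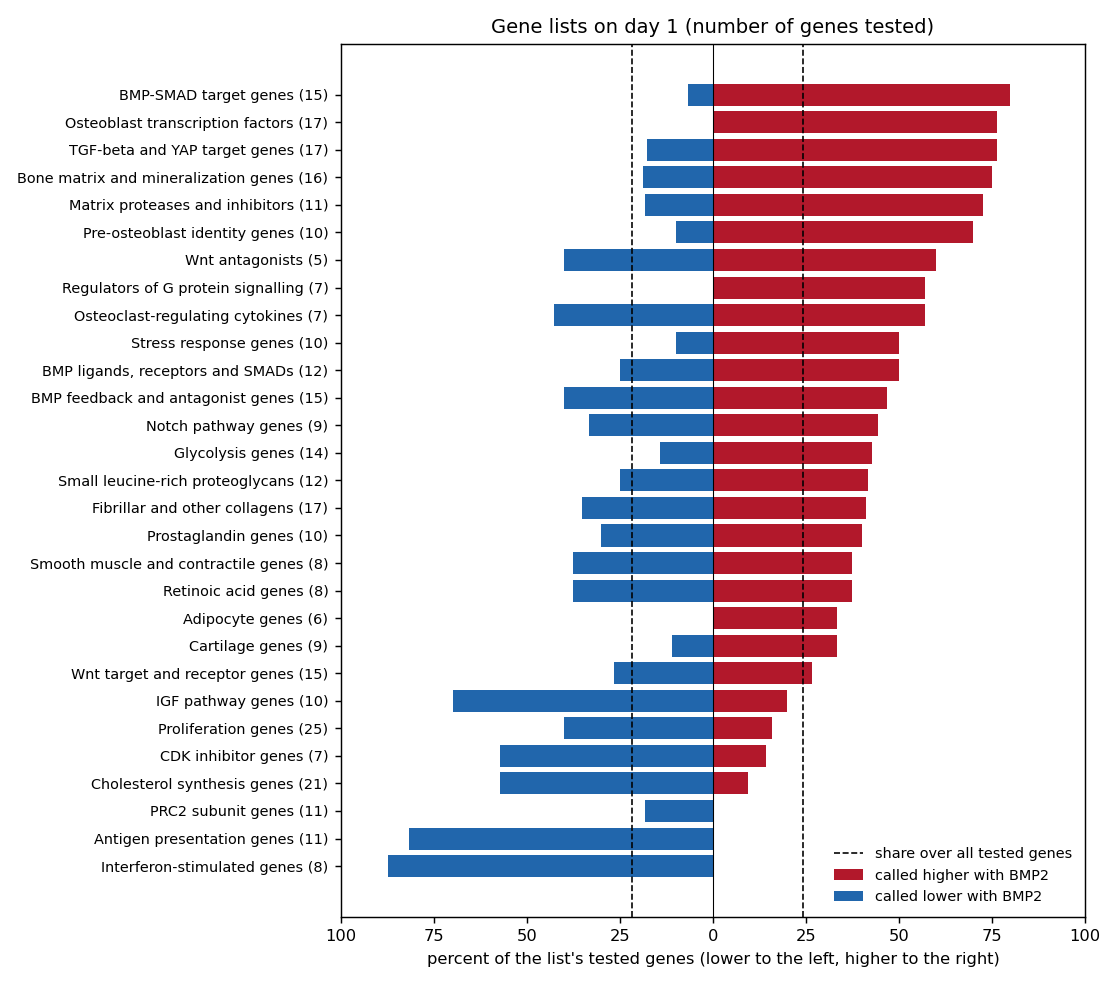
Percent of the tested genes of each list called higher (red, to the right) and lower (blue, to the left) with BMP2 50 ng/ml on day 1, for the 29 lists with at least 5 tested genes, whose number stands in brackets. Dashed lines mark the shares over all tested genes, 24.1% higher and 21.7% lower, and the BMP-SMAD, osteoblast transcription factor and TGF-β lists reach furthest to the right and the interferon and antigen lists furthest to the left.

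Matrix lists beyond bone were mixed. In the collagen list 7 of 17 were called higher and 6 lower, led by Col15a1, a basement membrane zone collagen (1.59 ± 0.07, adjusted p = 0.0017 over 12 libraries), and by Col16a1 on the lower side (-0.43 ± 0.03). Small leucine-rich proteoglycans were higher for 5 of 12 and lower for 3. Fmod, fibromodulin, had 1619 and 1648 CPM with BMP2, against 961 and 1021 CPM without. Matrix proteases and inhibitors were higher for 8 of 11 and lower for 2, with Adamts4 at 0.83 ± 0.06 and Timp1 at 0.74 ± 0.03. Without Mmp13, which passed the filter only through the libraries with BMP2, 7 of 10 were higher and 2 lower. In the cartilage list 3 of 9 were higher and 1 lower. Without Hapln1, which passed in the same way, 2 of 8 were higher, close to the 24.1% over all tested genes, and 1 lower. Col2a1, the main collagen of cartilage, had 4006 and 4478 CPM with BMP2, against 2502 and 2898 CPM without. Acan, a cartilage proteoglycan, had 0 read pairs in the 4 libraries. Sox9, a regulator of Col2a1, rose by 0.71 ± 0.03. Neither Col2a1 nor Sox9 passed over 12 libraries (adjusted p = 0.13 and 0.099).

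Over all tested genes 24.1% were called higher and 21.7% lower. The cell cycle and housekeeping lists had median log2 fold changes between -0.11 and 0.01, other than the stress response list at 0.23. Of the genes named in them Rrm2, Cdkn1b, Hk2 and Ddit4 passed over 12 libraries (adjusted p = 0.042, 0.015, 0.045 and 0.033) and no other did. Of 25 proliferation genes 4 were called higher and 10 lower, with a median of -0.05, and the members named were Rrm2 at 0.33, Rrm1 at -0.18, Ccne1 at 0.17 and Mcm6 at -0.16. CDK inhibitors were higher for 1 of 7 (Cdkn1a, 0.32 ± 0.03) and lower for 4, led by Cdkn2c (-0.49 ± 0.05) and Cdkn1b (-0.48 ± 0.03). Cholesterol synthesis genes were higher for 2 of 21 and lower for 12, each by less than 0.3 on the log2 scale. Called lower were thus 57.1% of the CDK inhibitor and cholesterol lists and 40% of the proliferation list. Glycolysis genes were higher for 6 of 14 and lower for 2, led by the hexokinase gene Hk2 (0.94 ± 0.03). Stress response genes were higher for 5 of 10 and lower for 1, Ddit4 (-0.73 ± 0.05), with the secretory pathway factor Xbp1 at 0.53 ± 0.03. Contractile genes were higher for 3 of 8 and lower for 3, among them Acta2 at -0.25 ± 0.02. PRC2 subunits were higher for 0 of 11 and lower for 2, Aebp2 and Rbbp7, both at -0.07. Ezh2, the target of GSK126, did not pass, with 85.7 and 83.2 CPM with BMP2, against 83.1 and 79.5 CPM without.

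The label of a pre-osteoblast line was checked against 10 identity genes. Of these 9 passed the filter also by the libraries without BMP2, among them Col1a1, Runx2 and Prrx1, and Alpl passed it only through the libraries with BMP2. Most markers of other cell types were below the filter, namely 7 of 10 leukocyte, 8 of 9 endothelial, 7 of 8 skeletal muscle, 5 of 9 neural and 7 of 9 osteoclast genes. Leukocyte Ptprc had 0 to 2 read pairs, endothelial Cdh5 0 to 2, muscle Myod1 0 to 1 and osteoclast Acp5 0 to 2. The summed level of the leukocyte list was 9.45 and 10.0 CPM with BMP2, against 8.94 and 8.72 CPM without, and of the 3 tested Csf1r, which passed the filter only through the libraries with BMP2, was called higher. Single members of other lists were well expressed. The endothelial list summed to 72.0 and 74.1 CPM with BMP2, against 70.4 and 73.7 CPM without, nearly all of it Flt1, its 1 tested gene, which did not pass. The osteoclast list summed to 154 and 149 CPM with BMP2, against 135 and 133 CPM without, nearly all of it Ctsk and Nfatc1, which osteoblasts also express and which were both called higher. The skeletal muscle list had 1 tested gene, Acta1, called lower. The neural list, with 2 of 4 called higher and 1 lower, summed to 103 and 97.4 CPM with BMP2, against 57.0 and 58.0 CPM without, most of it Tubb3. In such bulk RNA a change in the share of cells and a change in RNA per cell cannot be told apart.

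The pair folds of the 144 genes differed little on balance. Among the 82 genes higher at 2-fold, 56 had the larger fold without GSK126, and the median difference between the pairs was -0.07 on the log2 scale. Among the 62 lower genes, 36 had the larger fold without GSK126, with a median difference of 0.06. This difference has no replicate check. Of genes averaging 20 CPM or more, those whose pairs differed most were Tmem158, Ibsp, Wscd2, Fgfr3, 6330406I15Rik, Srpx2 and Zfp703. The pair folds of 6330406I15Rik, a gene with no ordinary symbol, were -1.69 without GSK126 and -1.47 with it. For Ibsp the pair folds were 2.99 without GSK126 and 2.65 with it, and for Fgfr3, a fibroblast growth factor receptor, they were 1.30 and 1.53.

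The libraries with BMP2 10 ng/ml on day 1 share their controls with those at 50 ng/ml, so both values are only set side by side. For Sp7 the log2 fold changes at 10 and 50 ng/ml were 1.42 and 2.01 without GSK126 and 1.37 and 1.87 with it. For Tnn they were 1.88 and 3.03 without GSK126 and 1.93 and 3.03 with it. For Smad6 they were 0.76 and 1.34 without and 1.03 and 1.24 with. For Crabp2 they were -1.69 and -2.23 without and -1.60 and -2.04 with, and for Bmp4 -0.78 and -1.19 without and -0.76 and -1.12 with. In these 5 genes 50 ng/ml gave the larger change in both pairs.

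On day 6 many of the 144 genes still differed the same way. Of the 82 higher genes 59 were higher in both day 6 pairs, 10 were lower in both and 13 were mixed. Of the 62 lower genes 44 were lower in both, 7 higher in both and 11 mixed. These genes were chosen by their day 1 change, so the shares are a description. The difference between the days was tested in a fit on 8 libraries, which called 462 of 11954 genes (3.86%). On day 6 the effect was more positive for 171 of them (1.43%) and more negative for 291 (2.43%). Without any 1 library of day 1 that count was 1, and without any 1 library of day 6 it was 5643 to 5802, so it depends on every library. With 1 library left out, its day had as many terms as libraries, so the spread came from the other day alone. Of the 144, 27 were called in the fit on 8 libraries. Among these 12 had opposite directions on the days, and they are named after their values were seen. Higher on day 1 and lower on day 6 were Postn, Gm12824, Ret, 6330512M04Rik, Ednra, Zfp703, F13a1 and Nrn1. Lower on day 1 and higher on day 6 were Dmpk, Bmp4, Lrrc15 and Chrdl1. For Bmp4 the day 6 log2 fold changes were 0.50 and 0.27, against -1.19 and -1.12 on day 1. For Chrdl1 they were 0.63 and 0.24, against -1.40 and -1.34 on day 1. Postn, higher by 1.10 on day 1, was at -0.45 and -0.17 on day 6.

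**Figure D5:**
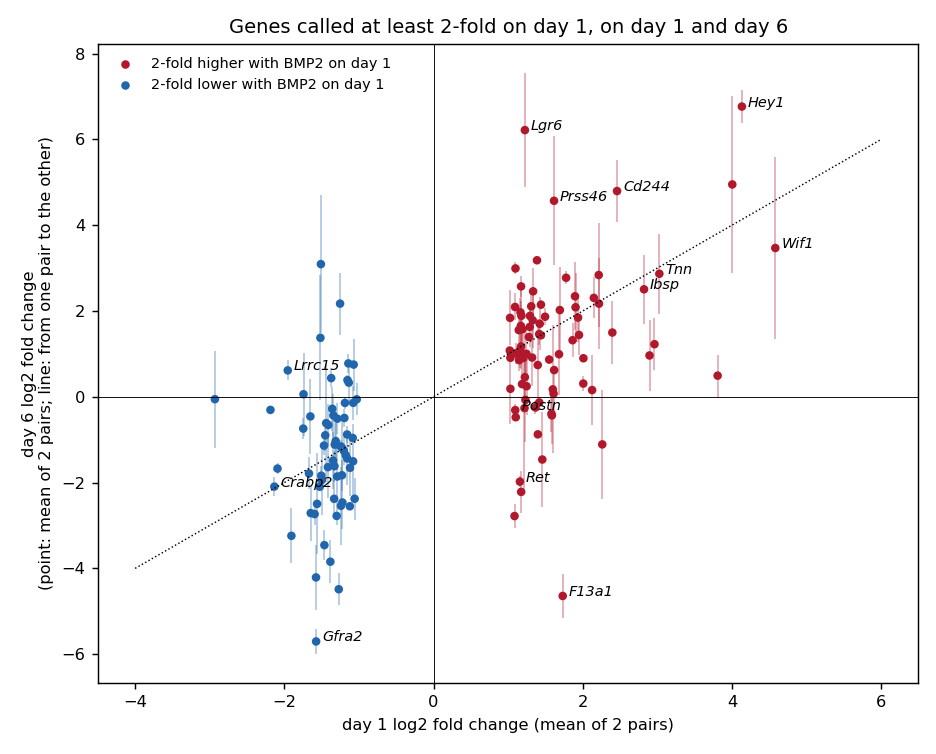
Log2 fold change with BMP2 50 ng/ml on day 1 (x axis) and day 6 (y axis, with a line from one pair to the other) for the genes called at least 2-fold on day 1 other than Tmem158, higher in red and lower in blue. Points in the upper left and lower right areas changed in opposite directions on the days, and Lgr6 and Gfra2 moved further on day 6 than on day 1.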

How the data were processed

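The deposited table, made by the authors, gives counts and RPKM values per gene for each of the 12 libraries. Libraries were made with Illumina's mRNA kit, per the labels' protocols. Build mm10 and the tools bcl2fastq, TopHat2 2.0.6 and HTSeq are named in the submitters' processing notes. How counting, strand and annotation were set is not given in the sources, so overlapping and antisense genes cannot be told apart. The counts as deposited were tested. The authors' RPKM values, scaled by coding length and library total, were used only for levels between genes. The table had 23358 rows, of which 69 shared a name and were kept apart. No count was odd.

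The test was edgeR 4.0.16 (R 4.3.3) with terms for GSK126 and BMP2, a filter of 1 CPM or more in 2 or more libraries, TMM scaling and Benjamini-Hochberg adjustment at 0.05. Pair folds are differences of log2 CPM with a prior count of 2. The difference between days used 8 libraries and a day by BMP2 term, with 2 residual degrees of freedom. Scripts were tested on simulated counts. Alternatives were other scalings, filters and library sets, DESeq2 1.42.0, limma-voom (limma 3.58.1), no GSK126 term, halved counts, a robust estimate of the spread and each library left out. Intervals (95%, exact) and the floor of 3 read pairs cover counting error only.

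Named genes were 14 rises and 14 falls of largest size among genes called 2-fold with a mean of at least 5 CPM and an ordinary symbol, up to 4 called members per list with a mean of at least 1 CPM, a panel of 19 BMP and bone genes and Ezh2, and up to 6 genes called 2-fold with at least 20 CPM and an ordinary symbol whose pairs differed most, a limit on symbols that the written rule did not hold and that left out 6330406I15Rik. The comparison, the 34 gene lists and the panel were chosen with earlier results of these data known.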

Additional observations from a re-analysis of the deposited data

Results flagged for a closer look

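For 32 genes named by the rule or the lists the BMP2 effect differed between the days in the fit on 8 libraries, whose count is not stable to leaving out 1 library (1 to 5802 genes). Values are log2 fold changes on day 6 minus those on day 1, and no cause was tested. The difference was positive for Lgr6 (6.13), Lrrc15 (2.58), Chrdl1 (1.81), Id3 (1.76), Col2a1 (1.64), Hes1 (1.59), Bmp4 (1.54), Lif (1.52), Ltbp2 (1.51), Dhrs3 (1.37), H2-K1 (1.34), Pla2g4a (1.27), Ptgs2 (1) and Timp1 (0.95).

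It was negative for Tmem158 (-8.53), whose 2 levels do not follow BMP2 over the series, and for Igf1 (-4.18), Gfra2 (-4.14), Nov (-2.46), Zcchc5 (-2), Sfrp2 (-1.86), Col8a1 (-1.59), Zfp703 (-1.58), Mtap2 (-1.52), Il1rl1 (-1.50), Adamts4 (-1.39), Col16a1 (-1.37), Matn2 (-1.17), Fzd2 (-1.14), Col15a1 (-0.99), Tm7sf2 (-0.96), Kremen1 (-0.93) and Rbbp7 (-0.69).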

How the results depend on the processing

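No alternative reversed any of the 144 genes that it tested. Of named genes only Ezh2 reversed, at 0 on the log2 scale with library size alone, and it was not called in either fit. The count of 5280 called genes was 2956 with DESeq2 (1600 higher, 1356 lower), 2606 without the GSK126 term (1395 and 1211), 476 over 12 libraries (244 and 232) and 1 over 8 libraries (1 and 0). With library size alone 1554 were higher. With 1 of the 4 libraries left out, in a fit on the other 5 day 1 libraries with the 10 ng/ml ones included, it was 3148 to 3930 (1587 to 2101 higher, 1561 to 1829 lower). List members called, 244 in the 4 libraries, were 51 over 12 libraries, 0 over 8 and 189 to 216 with 1 library left out. The 144 became 95 with a filter of 5 CPM, 1 over 8 libraries, 219 by size alone in the pair without GSK126, and 167 to 217 with 1 library left out, where the gene had to be called and 2-fold in the 1 complete pair that remained. The 462 genes whose effect differed between days became 1504 over 12 libraries (668 more positive, 836 more negative), 1137 with DESeq2 (487 and 650) and 1 to 5802 with 1 library left out (0 to 2772 and 1 to 3123). With library size alone 87 were more positive. Robust estimation of the spread, added after seeing the data, called 5311. Why these counts moved was not tested, other than that fits over both days use a spread shared with day 6. The fit of the day difference with 1 library left out takes its spread from the other day alone. Depth limits genes below about 1 CPM.

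No paired analysis by replicate number was possible because every condition has 1 library. The pairs are matched by GSK126, which is a term of the test.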

Other observations

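Some genes called at least 2-fold on day 1 belong to no list, and are given here by their values, chosen after these were seen. Creb3l1, an endoplasmic reticulum factor that raises collagen secretion in bone, had 428 and 410 CPM with BMP2, against 181 and 172 CPM without. Unc5b, a netrin receptor, had 620 and 578 CPM with BMP2, against 268 and 257 CPM without. The homeobox gene Dlx2 had 59.4 and 55.8 CPM with BMP2, against 25.2 and 25.8 CPM without. Plagl1, an imprinted zinc finger gene, had 104 and 110 CPM with BMP2, against 34.8 and 36.6 CPM without. All 4 were higher in both pairs and passed over 12 libraries with edgeR's quasi-likelihood test (adjusted p = 0.035, 0.014, 0.0099 and 0.0082).

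On the lower side the membrane protease Mme (neprilysin) had 27.6 and 33.3 CPM with BMP2, against 70.1 and 83.2 CPM without. The imprinted gene Mest had 20.2 and 23.3 CPM with BMP2, against 46.5 and 48.0 CPM without. The laminin receptor subunit Itga3 had 49.4 and 52.4 CPM with BMP2, against 107 and 120 CPM without. Mme and Mest passed over 12 libraries (edgeR's quasi-likelihood test, adjusted p = 0.014 and 0.0031) and Itga3 did not (adjusted p = 0.054).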
